A study of Homo sapiens with 2 samples.

Results

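The genes described here are the ligands and receptors of axon guidance, 69 of the 61487 genes counted in TPH2-EGFP-positive cells sorted from differentiating human embryonic stem cells. They were chosen by symbol alone and comprise 20 semaphorins, 8 ephrins, 3 SLIT ligands and 4 netrins, and as receptors 9 plexins, 2 neuropilins, 14 Eph receptors, 4 ROBO receptors and 5 members of the UNC5 and DCC group. All 69 symbols were found once in each library.

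Growth cones read these cues while an axon is being laid down. Semaphorins signal through plexins, with neuropilins as co-receptors for the secreted class, ephrins bind Eph receptors on contact, SLIT proteins repel through ROBO receptors, and netrins attract through DCC and repel through UNC5 proteins. Serotonin neurons of the hindbrain raphe send axons over very long distances, to the forebrain and to the spinal cord.

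The cells came from the H9 line (WA09), in which EGFP had been placed at the TPH2 locus so that neurons expressing this serotonin-synthesis enzyme could be sorted at day 42 of differentiation. The group labelled WT carried the reporter alone, and the group labelled FKO carried it in a line with a frameshifting indel in FOXA2. Purmorphamine (PUR), which activates Hedgehog signalling, was used in the differentiation. Its concentration in the sequenced cultures is not stated, and genotype and PUR dose cannot be told apart. Some other day 42 cultures of the study had a lower concentration for WT than for FKO cells, and others had a lower and a higher one within each genotype. Each group is 1 library of a 10x Genomics 3' kit, in which every captured transcript is counted once by its unique molecular identifier (UMI). Depth was 123064653 UMIs over 11052 barcodes in the library labelled WT (median 10959.5) and 70588747 UMIs over 8806 barcodes in the library labelled FKO (median 6669.5), and 21 barcode sequences occurred in both. Filtering left 5749 and 6978 cells, with medians of 12460 and 6927 UMIs and of 7.82% and 5.33% mitochondrial UMIs. A gene's UMIs over all kept cells of a library, scaled to that library's total, are its CPM. Where values come in pairs, the library labelled WT is first and the library labelled FKO second. There is no replicate check of any difference between the libraries, and the 95% intervals are exact and cover counting error only.

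FOXA2 itself (ENSG00000125798), the targeted gene, was at 4.35 CPM (334 UMIs) and 21.8 CPM (1265 UMIs) respectively. UMIs counted at the 3' end do not read the edited bases, so the level of the transcript does not test the genotype. The genotype was thus not tested, the libraries are named by their labels throughout, and every direction below rests on those labels. With at most 5% mitochondrial UMIs, a limit that leaves 340 cells of the library labelled WT, FOXA2 was at 12.9 and 14.5 CPM, and its log2 ratio relative to the median of all genes turned from 1.78 to −0.31. The 6 floor plate markers, FOXA2 among them, were all detected in both libraries, summed to 49.2 and 74.5 CPM and were led by SPON1 (27.8 CPM in each). Over all kept cells SHH (5.91 and 2.75 CPM) and CORIN (3.36 and 0.79 CPM) were lower in the library labelled FKO, and FOXA1 (2.45 and 9.07 CPM) and NTN1 (5.30 and 12.2 CPM) were higher in it. The choice of cells changed these pairs. With at most 5% mitochondrial UMIs, SPON1 was at 66.8 and 20.1 CPM, SHH at 21.7 and 2.89, CORIN at 8.80 and 0.77, FOXA1 at 6.88 and 6.86 and NTN1 at 11 and 10.6 CPM. Without cluster 6 of the clusters described further on, SPON1 was at 3.97 and 11.7 CPM, SHH at 0.41 and 1.28, CORIN at 0.46 and 0.41, FOXA1 at 0.61 and 7.61 and NTN1 at 1.66 and 5.22 CPM. With clusters weighted equally, SPON1 was at 74.0 and 42.6 CPM.

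The label of serotonin neurons was checked against 9 serotonergic markers. All 9 were detected in both libraries, with a summed level of 2928 and 2466 CPM, and the most abundant was FEV (1584 and 908 CPM). TPH2 was at 198 and 161 CPM, DDC at 269 and 225 CPM and MAOB at 184 and 148 CPM. GATA3 (595 and 817 CPM), GATA2 (24.2 and 41.9 CPM) and LMX1B (32.9 and 71.4 CPM) were higher in the library labelled FKO. So were SLC6A4 (21.1 and 43.6 CPM) and SLC18A2 (19.2 and 50.6 CPM). The endothelial markers PECAM1 and CDH5 summed to 0.04 and 0.02 CPM, with CDH5 at 0 in the library labelled WT and PECAM1 at 0 in the library labelled FKO. Mesenchymal markers (5 of 5 detected in each library, led by LUM and by COL1A2) summed to 36.5 and 227 CPM, and glial markers to 5.22 CPM (5 of 6 detected, SOX10 at 0) and 59.6 CPM (6 of 6), S100B being the highest in both. The part of these other cells in the pooled ratios was not tested directly, and values without the cluster that holds them are given with the clusters.

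Guidance genes as a whole took a larger share of the UMIs in the library labelled FKO. Their sum was 1145 and 2674 CPM, 2.34-fold higher. Of the 69 genes, 60 reached a mean of 1 CPM over both libraries, 5 of them only through the library labelled FKO and 1 only through the library labelled WT, and 59 of the 60 had the higher CPM in the library labelled FKO. The same direction was common among all genes, since 75% of the 15372 genes with that mean were higher there and their median log2 ratio was 0.55 (1.46-fold). Ratios are therefore given relative to that median gene wherever the text says relative. On that scale the median of the 60 members was 0.59, 53 of them (88.3%) lay above the median gene, and 19 (31.7%) were at least 2-fold higher, against 9.82% of all genes tested. A single member, EFNA4 (chosen after its value was seen), was at least 2-fold lower (1.28 and 0.83 CPM, relative log2 ratio −1.17), against 10.5% of all genes tested. With no shift taken off, 37 of the 60 members (61.7%) were at least 2-fold higher and 0 were as much lower, against 26.5% and 2.19% of all genes. Of the 19, SEMA5A, EPHA6, UNC5B and PLXND1 (the last 3 named after their values were seen) passed the filter only through the library labelled FKO, where they are higher, and EFNA4 passed only through the library labelled WT. Among the 14074 genes with at least 1 CPM in each library, whose median log2 ratio was 0.48, 18 of 54 members (33.3%) were at least 2-fold above that median and 0 as much below it, against 6.74% and 8.87% of all these genes. Against the median of 0.55 it was 15 of the 54 (27.8%), and 5.71% of all these genes. The 9 members under the filter were all at a mean below 1 CPM.

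**Figure D1:**
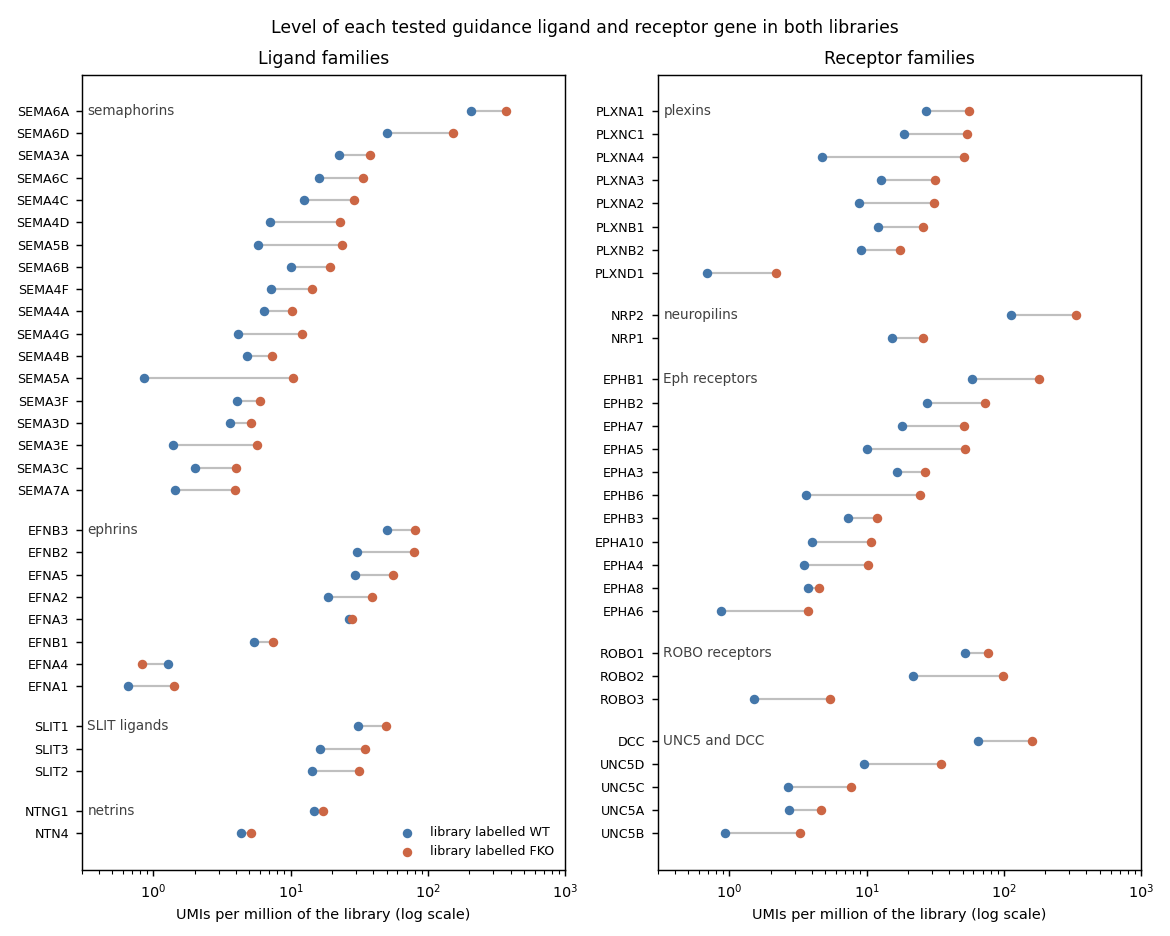
Level of the 60 tested guidance genes in CPM on a log axis, ligand families on the left and receptor families on the right, with a blue point for the library labelled WT, an orange point for the library labelled FKO and a grey line joining them. The orange point lies to the right for 59 of the 60 genes, EFNA4 being the other, and the lines of SEMA5A and PLXNA4 are among the longest.

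Ligands and receptors differed in how far they stood from the median gene. The 35 ligand genes summed to 612 and 1200 CPM, a relative log2 ratio of 0.43 (0.41 to 0.44). The 34 receptor genes summed to 533 and 1474 CPM, a relative log2 ratio of 0.92 (0.90 to 0.94). The receptor sum thus stood further above the median gene than the ligand sum. By gene, 6 of the 31 tested ligands (19.4%) and 13 of the 29 tested receptors (44.8%) were at least 2-fold higher than the median gene, against 9.82% of all genes tested. Relative to genes of like length these were 5 ligands (16.1%) and 8 receptors (27.6%), against 10% of all genes. Of these, 3 of the 13 receptors and 1 of the 6 ligands passed the filter only through the library labelled FKO. With at least 1 CPM in each library and the same median gene, 5 of 28 ligands (17.9%) and 10 of 26 receptors (38.5%) were as much higher, against 5.71% of all these genes. Relative to like length these were 4 (14.3%) and 5 (19.2%), against 5.85%. The ligand shares thus lay nearer to those of all genes than the receptor shares did.

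The 20 semaphorins summed to 368 and 768 CPM (relative log2 ratio 0.52, 0.50 to 0.54). SEMA6A, a membrane-bound semaphorin that signals through class A plexins, made up 56.2% and 48.1% of the family's UMIs. It was at 207 and 369 CPM, a relative log2 ratio of 0.29 (0.26 to 0.32). Its relative SEMA6D was at 50.6 and 152 CPM (1.04, 0.98 to 1.09), and SEMA6C at 16.2 and 33.8 CPM. The secreted SEMA3A, a repellent that acts through NRP1, was at 22.6 and 37.9 CPM (0.20, 0.11 to 0.29). SEMA6A and SEMA3A thus lay nearer to the median gene than SEMA6D did.

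Class 5 semaphorins are membrane proteins with thrombospondin repeats. SEMA5A (ENSG00000112902), which passed the filter only through the library labelled FKO, had the highest ratio of the 60 tested members over all kept cells. It went from 0.86 CPM (66 UMIs) in the library labelled WT to 10.3 CPM (599 UMIs) in the library labelled FKO, a relative log2 ratio of 3.04 (2.67 to 3.43). Under other settings this ran from 2.11 with clusters weighted equally to 4.91 with at most 5% mitochondrial UMIs, where 1 and 298 UMIs were counted. The secreted SEMA3G (named after its value was seen), under the filter with 2 and 42 UMIs, had a higher ratio with a wider interval (4.25, 2.31 to 7.35), but without cluster 6 it was counted 2 and 5 times and with at most 5% mitochondrial UMIs 0 and 7 times. SEMA5B was at 5.78 and 23.7 CPM (1.49, 1.33 to 1.65). In class 4, SEMA4D, the ligand of PLXNB1, was at 7.12 and 22.8 CPM (1.13, 0.99 to 1.28), and SEMA4G at 4.10 and 12.1 CPM (1.01, 0.82 to 1.21). The other 10 tested semaphorins had relative log2 ratios between −0.03 and 1.48, and all 10 had the higher CPM in the library labelled FKO.

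Ephrins, SLIT ligands and netrins, each summed over all kept cells, stood closer to the median gene than the semaphorin sum did. Relative to genes of like length this order turned for ephrins and for netrins. With clusters weighted equally it turned for netrins. The 8 ephrins summed to 163 and 292 CPM (relative log2 ratio 0.30, 0.26 to 0.33). EFNB2 had the highest ratio among them, at 30.4 and 79.7 CPM (0.84, 0.77 to 0.92), while EFNB3, also a transmembrane ephrin, was at 50 and 80.2 CPM (0.14, 0.07 to 0.20). Of the ephrins held in the membrane by a lipid anchor, EFNA5 was at 29.7 and 55.8 CPM (0.37, 0.29 to 0.44) and EFNA2 at 18.7 and 39.0 CPM (0.51, 0.42 to 0.61). The remaining 4 ephrins lay between −1.17 and 0.57. The 3 SLIT ligands, repellents of the ventral midline among other sites, summed to 61.7 and 116 CPM (0.37, 0.31 to 0.42), a ratio that fell to −0.01 relative to genes of like length and to −0.03 with at most 5% mitochondrial UMIs. SLIT1 was at 31.1 and 49.8 CPM (0.14, turning to −0.10 with that mitochondrial limit and to −0.25 relative to genes of like length). SLIT2 was at 14.3 and 31.5 CPM (0.60, turning to −0.53 with that limit and falling to 0.05 with clusters weighted equally), and SLIT3 at 16.4 and 34.9 CPM (0.55).

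Over all kept cells the netrin group was the 1 family below the median gene, although its CPM was the higher in the library labelled FKO, which turned with clusters weighted equally and in clusters 3, 5, 6 and 7. It summed to 19.8 and 23.8 CPM, a log2 ratio of 0.26, or −0.28 relative to the median gene (−0.39 to −0.18). In cluster 2 it was above the median gene, at 12 and 24.5 CPM (0.48, 0.24 to 0.73), and in cluster 6 the ephrins (−0.45) and SLIT ligands (−0.40) were below it as well. NTNG1, a netrin-related protein tethered to the axon surface that does not signal through DCC, supplied 75% and 72.5% of these UMIs, at 14.9 and 17.2 CPM (relative −0.33), which turned to 18.7 and 17.1 CPM with at most 5% mitochondrial UMIs and to 21.3 and 17.8 CPM with clusters weighted equally. NTN4, which binds laminins, was at 4.34 and 5.13 CPM (relative −0.30, turning to 0.41 with that mitochondrial limit), and its CPM turned to 5.05 and 4.26 with clusters weighted equally. NTNG2 was counted 36 and 75 times and NTN3 12 and 7 times, both under the filter. NTN1, the classical attractant made by floor plate cells, is outside the symbols that defined the list. It was at 5.30 and 12.2 CPM, a relative log2 ratio of 0.66 (0.48 to 0.84) that turned to −0.53 with the same limit.

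Among receptors, plexins, which carry the semaphorin signal into the growth cone, summed to 94.4 and 269 CPM (relative log2 ratio 0.96, 0.92 to 1). PLXNA4 (ENSG00000221866), a partner of neuropilins and of SEMA6A, had the highest ratio of any tested receptor. It was at 4.70 CPM (361 UMIs) and 51.1 CPM (2962 UMIs) respectively, 10.9-fold, or 2.90 relative to the median gene on the log2 scale (2.74 to 3.06). PLXNA2 was at 8.85 and 31.0 CPM (1.26, 1.13 to 1.39), PLXNC1 at 18.9 and 53.9 CPM (0.97, 0.88 to 1.06), PLXNA3 at 12.7 and 31.6 CPM (0.77) and PLXNA1 at 27.3 and 55.3 CPM (0.47). With at most 5% mitochondrial UMIs, PLXNC1 was at 10.7 and 57.7 CPM (1.95) and PLXNA3 at 9.08 and 33.7 CPM (1.42). All 8 tested plexins lay above the median gene. Without PLXNA1, the most counted plexin, the family's relative log2 ratio was 1.12.

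The neuropilins, which have little signalling of their own and present secreted semaphorins to plexins, differed from each other. NRP2, the co-receptor of SEMA3F, was at 112 and 336 CPM (relative log2 ratio 1.04, 1 to 1.08) and supplied 88.0% and 92.9% of the UMIs of the pair. NRP1, the co-receptor of SEMA3A, was at 15.2 and 25.7 CPM (0.21, 0.10 to 0.32).

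Eph receptors are tyrosine kinases that answer ephrins on neighbouring cells. Their 14 genes summed to 155 and 451 CPM (relative log2 ratio 0.99, 0.96 to 1.03). EPHB1 was at 58.6 and 181 CPM (1.08, 1.03 to 1.13), EPHB2 at 27.7 and 72.6 CPM (0.85) and EPHA7 at 18.2 and 51.2 CPM (0.95). EPHA5, a receptor of ephrin-A ligands, was at 10.1 and 52.0 CPM (1.82, 1.70 to 1.93). EPHB6, whose kinase domain is inactive, was at 3.63 and 24.4 CPM (2.20, 2.02 to 2.39), and EPHA4 at 3.48 and 10.2 CPM (1.01, 0.80 to 1.23). EPHA4 fell to 0.36 with clusters weighted equally (5.20 and 9.45 CPM) and to 0.80 with at most 5% mitochondrial UMIs. The other 5 tested Eph receptors had relative log2 ratios from −0.30 to 1.54. Ratios in this family therefore ran from below the median gene to 4.61-fold above it.

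ROBO1 and ROBO2, the main SLIT receptors, differed in ratio over all kept cells, but not in cluster 3, where both had a relative log2 ratio of 0.48. ROBO1 (ENSG00000169855) was at 52.4 and 77.1 CPM, which is the ratio of the median gene (relative log2 ratio 0.01, −0.05 to 0.07). ROBO2 (ENSG00000185008) was at 21.9 and 99.0 CPM (1.63, 1.55 to 1.71). Without ROBO1 the relative log2 ratio of the family went from 0.72 to 1.62. ROBO3, which dampens the response to SLIT in crossing axons, was at 1.51 and 5.44 CPM (1.30, 0.99 to 1.62). Its relative log2 ratio fell to 0.68 in clusters 1 to 4 (1.39 and 3.21 CPM) and to 0.89 among cells with a TPH2 UMI. ROBO4, best known from blood vessels, was counted 2 and 23 times, a ratio of 15.3 whose relative log2 interval ran from 1.37 to 6.51, and at most 5% mitochondrial UMIs left 1 and 8 counts and a relative log2 ratio of −0.31.

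DCC, the receptor through which netrin attracts axons, was at 65.0 and 161 CPM (relative log2 ratio 0.76, 0.71 to 0.81) and made up 80.3% and 76.1% of the UMIs of its group. UNC5D, a repellent receptor, was at 9.56 and 34.8 CPM (1.32, 1.2 to 1.44). UNC5C was at 2.70 and 7.74 CPM (0.97, 0.73 to 1.22) and UNC5A at 2.73 and 4.68 CPM (0.23, −0.04 to 0.50). The group as a whole had 80.9 and 211 CPM, a relative log2 ratio of 0.84 (0.80 to 0.88).

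The sequences before the start sites of 4 members are shown, because PLXNA4 and SEMA5A had the highest ratios among named members past the filter and ROBO1 and ROBO2 are close relatives with different ratios. Each is the 250 bases before the start of the gene in RefSeq (GRCh38.p14), written 5′ to 3′ in the direction of the gene. GENCODE release 29 places the start of PLXNA4 and of ROBO2 further upstream than RefSeq does, and that of ROBO1 further downstream. They lie at chr7:132576471-132576720 (minus strand) for PLXNA4, at chr5:9546076-9546325 (minus strand) for SEMA5A, at chr3:76310630-76310879 (plus strand) for ROBO2 and at chr3:79767999-79768248 (minus strand) for ROBO1. Capitals mark the GC box letters GGGCGG on either strand, which may overlap each other.
PLXNA4: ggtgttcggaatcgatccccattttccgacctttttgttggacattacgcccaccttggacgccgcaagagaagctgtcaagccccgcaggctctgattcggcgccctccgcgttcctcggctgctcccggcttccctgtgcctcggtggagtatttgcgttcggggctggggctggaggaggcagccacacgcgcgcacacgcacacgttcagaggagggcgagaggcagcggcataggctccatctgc
SEMA5A: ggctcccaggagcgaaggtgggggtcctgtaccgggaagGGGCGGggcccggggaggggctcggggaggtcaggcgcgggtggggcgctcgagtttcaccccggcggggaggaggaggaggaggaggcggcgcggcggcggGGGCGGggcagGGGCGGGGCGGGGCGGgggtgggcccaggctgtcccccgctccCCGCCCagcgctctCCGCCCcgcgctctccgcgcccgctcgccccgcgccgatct
ROBO2: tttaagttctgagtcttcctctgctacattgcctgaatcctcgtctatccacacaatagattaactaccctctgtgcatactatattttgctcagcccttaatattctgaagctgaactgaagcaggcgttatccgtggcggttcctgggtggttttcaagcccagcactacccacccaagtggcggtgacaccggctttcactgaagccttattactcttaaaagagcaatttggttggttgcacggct
ROBO1: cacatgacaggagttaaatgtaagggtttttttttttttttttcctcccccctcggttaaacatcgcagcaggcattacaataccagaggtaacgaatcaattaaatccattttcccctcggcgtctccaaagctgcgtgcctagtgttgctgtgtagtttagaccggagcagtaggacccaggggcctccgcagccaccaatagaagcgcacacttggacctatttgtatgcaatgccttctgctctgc
SEMA5A held 7 GC boxes and 82.0% G and C, and the other 3 held 0, with 63.6% for PLXNA4, 46.8% for ROBO2 and 48.0% for ROBO1. Windows were found for 59 of the 69 members. The bases after the start were found in a GENCODE transcript of the gene for 32 of the 59. PLXNA4 and SEMA5A were among the 32, and ROBO1 and ROBO2 were not. A GC box stood in 42 of the 59 (71.2%) and in 42.6% of all 35116 windows. The forkhead letters TGTTTAC, searched on both strands because FOXA2 is a forkhead factor, stood in 0 of the 59 and in 2.98% of all windows, the GATA letters AGATAAG in 1 (1.69%) and in 2.36%, and the ETS letters CCGGAAG in 2 (3.39%) and in 8.52%. These are matches of letters in this window only. Median G and C was 64.4% in the 59 windows and 58% in all windows, and its part in the matches was not tested.

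Ratios differed with gene length across all genes. Lengths from GENCODE release 29 were matched by identifier for 97.7% of the tested genes and for all 69 members, and the tested members had a median of 125 kb against 29.9 kb for all tested genes. With the genes in 10 bins of length, 32 of the 60 members fell in the 2 longest bins. The median log2 ratio of all genes was 0.29 in bin 1 (up to 2.98 kb), fell to 0.14 in bin 2 and was higher in each bin from there to bin 10 (from 180 kb), where it was 0.93. Read against its own bin of length, the median member stood at 0.63, 47 of 60 members lay above the median, and 13 (21.7%) were at least 2-fold higher and 0 at least 2-fold lower, against 10% and 7.17% of all genes. With at least 1 CPM in each library, 9 of 54 (16.7%) were as much higher, against 5.85% of all these genes. Of the 13, 12 were also among the 19 above. PLXNA4 (2.52), SEMA5A (2.66), EPHB6 (2.43), EPHA5 (1.44) and ROBO2 (1.25) were among them. SLIT2 (0.21), SLIT3 (0.16), SEMA6A (0.01), EFNA5 (−0.02), NRP1 (−0.08), SEMA3A (−0.18), SLIT1 (−0.25) and ROBO1 (−0.37) lay nearer than these to their bin's median. SLIT1 and ROBO1 lay below it by more than they lay above the median gene (0.14 and 0.01). What part gene length has in the ratios was not tested.

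**Figure D2:**
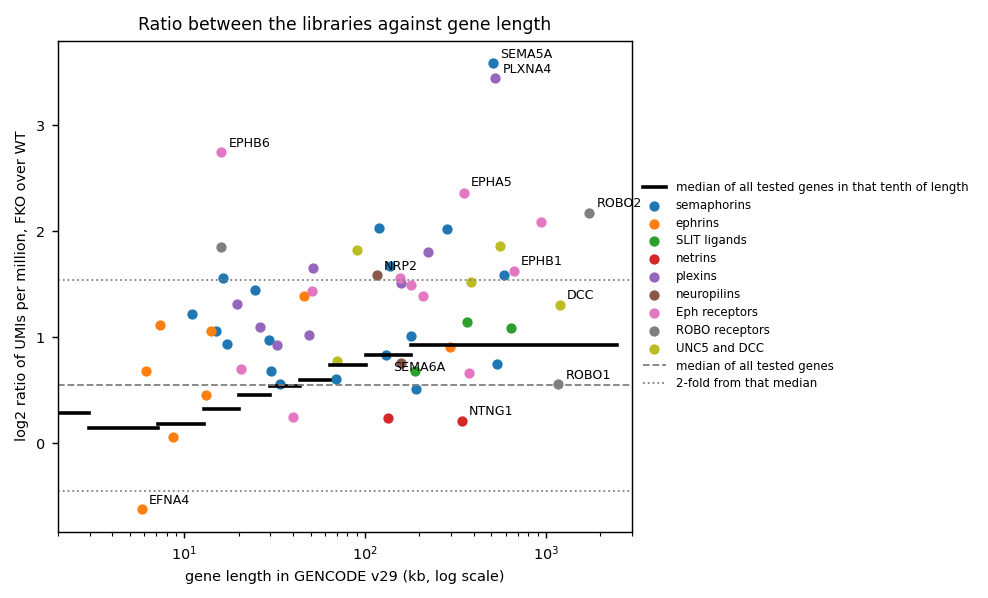
Log2 ratio of CPM, FKO over WT, of the 60 tested members against gene length in kb on a log axis, coloured by family. Black bars are the medians of all tested genes in each of 10 bins of gene length, the dashed line is the median of all tested genes (0.55) and the dotted lines lie 2-fold from it. SEMA5A, PLXNA4 and EPHB6 stand far above the bar of their length, and ROBO1, NTNG1 and SEMA6A at or below it.

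Genes that act with these ligands and receptors moved less as a list. Of 73 such genes, 69 were tested and 50 (72.5%) lay above the median gene. At least 2-fold higher were 7 (10.1%), close to the 9.82% of all genes, and 3 (4.35%) were at least 2-fold lower, against 10.5% of all genes. The median relative log2 ratio of the 69 was 0.38, and relative to genes of like length it was 0.15. On that scale 4 (5.80%) were at least 2-fold higher and 4 as much lower, against 10% and 7.17% of all genes. DSCAM, a netrin receptor of the immunoglobulin superfamily, was at 3.49 and 16.6 CPM (1.71, 1.51 to 1.91). The actin-binding LIM proteins ABLIM3 and ABLIM1 were at 7.86 and 27.9 CPM (1.28) and at 22.2 and 65.0 CPM (1.01). CDK5, a neuronal kinase downstream of semaphorins, was at 66.8 and 41.9 CPM (−1.22, −1.29 to −1.15). CXCR4, the chemokine receptor, was at 230 and 119 CPM (−1.50, −1.54 to −1.45) and was lower in the library labelled FKO in each of 8 clusters. By subset, median relative log2 ratios, each followed by the median relative to genes of like length, were 0.52 and 0.14 for the other netrin, RGM and DRAXIN genes, 0.46 and 0.28 for SLIT partners and 0.16 and 0.13 for semaphorin and plexin effectors. They were 0.12 and −0.26 for Eph effectors, 0.24 and 0.03 for cytoskeletal effectors and 0.54 and 0.22 for other cues and receptors.

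Cells of both libraries were clustered together without the members, the pathway genes or any gene differing at least 1.5-fold between the libraries, which gave 8 clusters, the smallest with 106 cells labelled WT. Clusters are given by number. Cluster 1, led by CALB1, CHODL and KIT, held 2481 and 2666 cells. Cluster 2 (1178 and 1106 cells) was led by STC1, CRH and GAL, cluster 3 (843 and 771) by SLC17A8 and CAV1, and cluster 4 (501 and 975) by GRIN3A, ONECUT3 and ONECUT2, with EPHA7 among its leading 10. Serotonergic markers were lower in cluster 5 (292 and 597 cells; LHX5-AS1, SST and NRN1), at 763 and 914 CPM, than in clusters 1 to 4, where they summed to between 2360 and 3947 CPM. Cluster 6 (182 and 328 cells) was led by COL1A1, COL1A2 and TOP2A, cluster 7 (106 and 340) had shallow cells with medians of 2390.5 and 2757 UMIs, and cluster 8 (166 and 195) was led by ATF3, a stress gene.

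Within clusters the share of members past 2-fold varied. At least 2-fold higher were 9 of 60 members in cluster 5 (15%, against 10.4% of all genes tested) and 11 of 59 in cluster 4 (18.6%, against 10.9%). The share was between 29.4% and 40% in the other clusters, against 9.81% to 15% of all genes tested. The median member lay above its cluster's median gene by 0.49 to 0.71 on the log2 scale in each of the 8 clusters, and 18 of the 60 members (30%) were above it in all 8, against 17.2% of all genes tested, counts that take a library without UMIs as 3 counts. These 18 included PLXNA1, PLXNA2, PLXNA4, PLXNC1, NRP2, EPHB1, EPHB2, EPHB6, ROBO2, DCC, SEMA6C, SEMA6D, SEMA4D, SEMA4G, EFNA2 and EFNA5. PLXNA4 ranged from 15.4 CPM in the library labelled WT against 58.8 CPM in the library labelled FKO in cluster 5 (relative log2 ratio 1.46, 1.07 to 1.87) to 3.38 against 64.6 CPM in cluster 3 (3.72, 3.21 to 4.27). In the library labelled FKO its level lay between 42.4 and 72.2 CPM in clusters 1 to 7, and the lowest was cluster 8 with 18.4 CPM. SEMA5A had 8 UMIs (0.26 CPM) in cluster 1 of the library labelled WT and 85 (4.38 CPM) in that of the library labelled FKO, and 0 and 142 UMIs in cluster 2, which is at least 5.46 above the cluster's median gene on the log2 scale with 3 counts taken for 0. SEMA5A lay above the median gene in clusters 1 to 6 and below it in cluster 8 with 4 and 3 UMIs, while cluster 7 with 0 and 7 UMIs gives a lower bound only. Without cluster 6, 17 of 57 tested members were at least 2-fold higher, against 9.30% of all genes tested in those cells. In clusters 1 to 4 alone this was 18 of 55, against 9.58%.

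**Figure D3:**
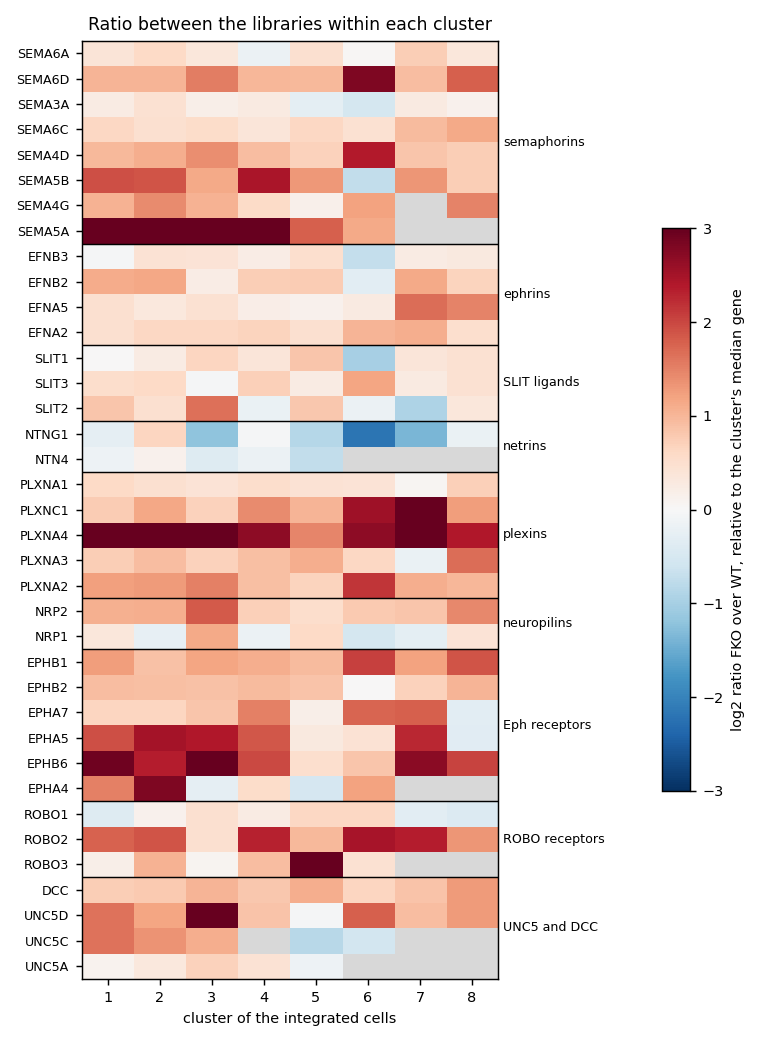
Log2 ratio FKO over WT of the named members with a mean of at least 1 CPM in each of the 8 clusters, relative to the median gene of the cluster, red for higher and blue for lower in the library labelled FKO, with colours ending at 3 and −3. Grey cells have under 20 UMIs over both libraries. PLXNA4 is red throughout, ROBO2 is palest in cluster 3, and NTNG1, whose CPM over all kept cells was the higher in the library labelled FKO but not so with at most 5% mitochondrial UMIs or with clusters weighted equally, is most blue in clusters 3, 5, 6 and 7.

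Other members did not move alike in all clusters. ROBO2 was at 22.9 and 111 CPM in cluster 1 (1.78, 1.65 to 1.90) and at 24.2 and 48.8 CPM in cluster 3 (0.48, 0.22 to 0.74), where ROBO1 had its highest level outside cluster 7, 103 and 208 CPM, and the same ratio (0.48, 0.35 to 0.60). ROBO1 was at 53.9 and 58.6 CPM in cluster 1, below the median gene (−0.38, −0.49 to −0.27). EPHA5 was at 8.39 and 68.8 CPM in cluster 2 (2.49, 2.25 to 2.73) and at 23 and 39.1 CPM in cluster 5 (0.29, −0.07 to 0.65). EPHB6 was at 18.9 and 37.1 CPM in cluster 5 (0.49, 0.11 to 0.89), against 2.12 and 22.4 CPM in cluster 1 (2.91, 2.53 to 3.31). ROBO3 had its highest ratio in cluster 5, from 8 to 131 UMIs (1.92 and 24.1 CPM; 3.17, 2.15 to 4.41). In the library labelled WT, cluster 5 was thus the highest of the 8 in EPHA5, EPHB6, PLXNA4 and ROBO2. Differences between clusters were not tested.

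Some members had their peak in the same cluster of both libraries. Leaving out the shallow cluster 7, the highest of the other clusters was the same in both libraries for 35 of the 60 tested members (58.3%) and for 43.6% of all genes tested. It was at least 2-fold above the remaining cells in each library for 16 members (26.7%) and for 12.2% of all genes tested. Those that lie outside the naming rule were named after their values were seen. EPHA7 and UNC5D peaked in cluster 4, at 41.3 and 32.4 CPM in the library labelled WT and 165 and 82.2 CPM in the library labelled FKO, and EPHA7 is among the genes that lead that cluster. ROBO1 peaked in cluster 3, EPHA4, EPHA6, EPHA8 and SEMA3E in cluster 5, and UNC5B in cluster 8. EPHA4 had 24 and 23.5 CPM in cluster 5, nearly the same in both libraries, while in cluster 1 it was at 3.13 and 12.7 CPM.

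Cluster 6 held the peaks of SLIT2, SEMA3C, SEMA3D, SEMA5A, EFNB1, EFNA4, PLXNB2 and PLXND1. SLIT2 was at 117 CPM there in the library labelled WT and at 154 CPM in the library labelled FKO, against 8.66 and 21.7 CPM in cluster 1, and NTN1 at 85.7 and 109 CPM against 1.99 and 4.28 CPM. In this cluster progenitor markers (6 of 6 in each library, led by VIM) summed to 8304 and 6372 CPM, floor plate markers (6 of 6, led by SPON1) to 916 and 520 CPM, and cycling markers (4 of 4, led by TOP2A) to 575 and 547 CPM. Mesenchymal markers (5 of 5) summed to 701 and 3097 CPM, and glial markers to 24.7 CPM (4 of 6, GFAP and SOX10 at 0) and 695 CPM (6 of 6). Marker levels within cluster 6 thus differed between the libraries, and their part in its ratios was not tested. SLIT1 (108 and 80 CPM) and EFNB3 (120 and 108 CPM) were lower there in the library labelled FKO, while both were higher in it in each of the other 7 clusters.

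**Figure D4:**
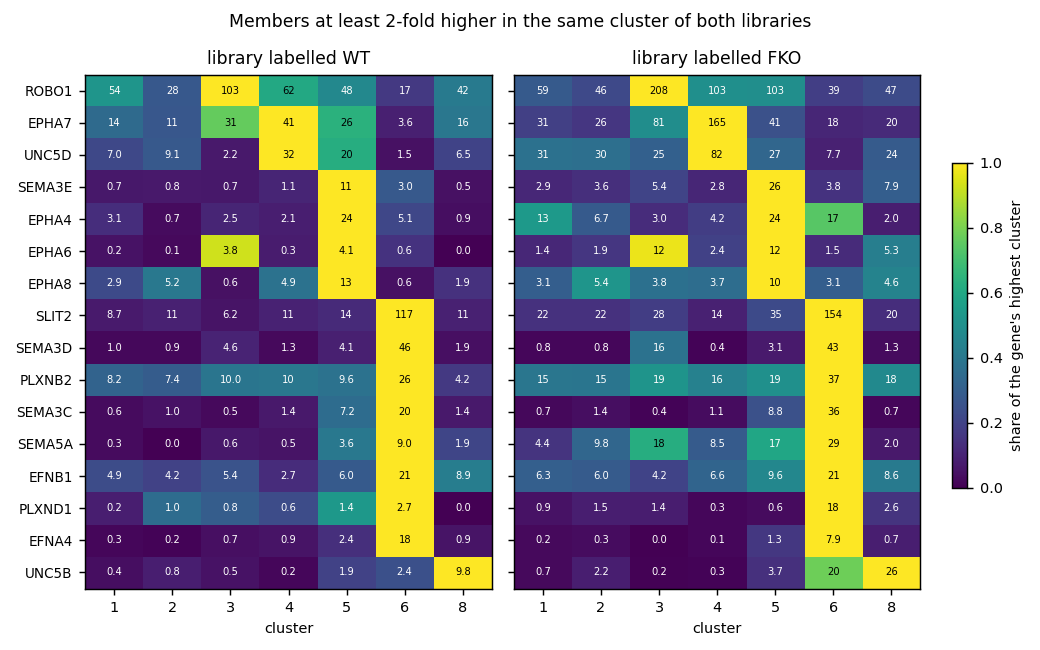
CPM of the 16 members that were at least 2-fold above the remaining cells in the same cluster of both libraries, by cluster without cluster 7, with the library labelled WT on the left and the library labelled FKO on the right. Numbers are CPM and colour is the share of the gene's highest cluster in that library. Bright cells stand in the same column on both sides, with 8 genes in cluster 6.

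For values cell by cell, each cell was thinned to 2000 UMIs, which left out 43 cells labelled WT and 116 labelled FKO. In thinned cells the median log2 ratio of all genes tested was 0.54. The counts and shares of cells given here have no such shift taken off and no values for all genes beside them. A thinned cell held UMIs of a median of 2 guidance genes (quartiles 1 and 3) in the library labelled WT and of 4 (3 and 6) in the library labelled FKO, and 13.8% and 1.22% of cells held none. Unthinned, the medians were 9 and 11. NRP2 was found in 17.3% (16.3 to 18.3) of thinned cells labelled WT and 39.2% (38.1 to 40.4) labelled FKO, against 51.6% and 66.7% unthinned. DCC was found in 11.9% and 27.0% (49.2% and 61.8% unthinned), EPHB1 in 10.3% and 28.2% (43.8% and 62.2%) and SEMA6A in 32.8% and 48.8% (81.6% and 83.2%). PLXNA4 was found in 0.82% (0.61 to 1.09) and 9.17% (8.49 to 9.87), and unthinned in 5.32% and 29%. In cluster 6, where serotonergic markers summed to 468 and 691 CPM, thinned shares were 5.17% and 15.1% for NRP2, 4.6% and 8.92% for DCC and 1.15% and 6.46% for PLXNA4. TPH2 was found in 3.45% and 4.62% of these cells against 28.9% and 24.6% of all thinned cells. Unthinned, TPH2 was found in 71.6% and 52.5% of all kept cells. Median depths in cluster 6 before thinning were 17117.5 and 9567.5 UMIs. By cluster, the mean number of guidance genes per thinned cell was lowest in cluster 8 of the library labelled WT (1.47, SD 1.08) and in cluster 6 of the library labelled FKO (2.95, SD 1.80).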

How the data were processed

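The authors' deposited count tables give raw UMIs by gene and barcode, made with Cell Ranger against GRCh38. The submitters' notes give version 7.0 and the matrix headers 7.1.0, and whether intronic reads were counted is not given in the sources used here. Kept barcodes had 1000 or more UMIs, 500 or more genes and a mitochondrial share of 10% or less. Scrublet (scanpy 1.11.5, Python 3.11.15) marked 0 doublets by its own threshold in either library, so the 977 and 620 barcodes scoring highest (0.8% per 1000 barcodes) were removed. Genes with a mean of at least 1 CPM were tested. Ratios had no pseudocount, and a count of 0 was taken as 3. Intervals (scipy 1.17.1) were Clopper-Pearson for shares and conditional binomial for ratios. Clustering used Seurat 5.3.0 (R 4.3.3) with canonical correlation integration and 30 dimensions. Named are FOXA2, the 4 members of each family with the highest mean CPM, members with a mean of at least 5 CPM at least 2-fold from the median gene, NTN1, and pathway genes with a mean of at least 10 CPM past the same limit. The members and lists were chosen with earlier results of these data known, and the motifs and shown promoters after values were seen. Alternatives changed cell limits, doublets, depth, scaling, filters, cell selection and clustering.

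Marker lists not given with the results summed, in the library labelled WT and then FKO, to 7691 and 11134 CPM (pan-neuronal), 169 and 128 (glutamatergic), 6.43 and 23.9 (LIM-homeodomain), 2.24 and 4.39 (GABAergic), 16.8 and 7.56 (catecholaminergic), 4.27 and 1.64 (cholinergic), 63.9 and 62.8 (stress) and 0.82 and 0.92 (pluripotent).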

Additional observations from a re-analysis of the deposited data

How the results depend on the processing

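The relative log2 ratios of the families, the median member and the counts of members past 2-fold were computed again under other settings, and those that moved are given here. With at most 5% mitochondrial UMIs, which left 340 and 2888 cells, values were 1.35 for plexins, 0.79 for semaphorins, 1.05 for neuropilins, 1.31 for Eph receptors, 0.49 for ephrins, 1.12 for ROBO receptors, −0.0279 for SLIT ligands, 1.11 for UNC5 and DCC, 0.77 for the median member. There, 3 members were at least 2-fold lower, against 15.5% of all genes. With at most 20% mitochondrial UMIs, values were 0.90 for plexins, 0.90 for neuropilins, 0.61 for ROBO receptors, 0.63 for the median member. In cells thinned to 2000 UMIs, values were 0.49 for semaphorins, 0.77 for ROBO receptors, 0.26 for SLIT ligands, 0.56 for the median member. With clusters weighted equally, values were 0.89 for plexins, 0.55 for semaphorins, 0.89 for neuropilins, 0.95 for Eph receptors, 0.15 for SLIT ligands, −0.68 for netrins, 0.63 for the median member. Among cells with a TPH2 UMI, values were 0.58 for semaphorins, 1.05 for neuropilins, 1.08 for Eph receptors, 0.37 for ephrins, 0.43 for SLIT ligands, −0.17 for netrins, 0.69 for the median member. There, 0 members were at least 2-fold lower, against 11.2% of all genes. Without cluster 6, values were 0.55 for semaphorins, 1.01 for neuropilins, 1.03 for Eph receptors, 0.35 for ephrins, 0.44 for SLIT ligands, 0.65 for the median member. There, 0 members were at least 2-fold lower, against 11% of all genes. In clusters 1 to 4, values were 0.57 for semaphorins, 1.07 for neuropilins, 1.09 for Eph receptors, 0.37 for ephrins, 0.89 for UNC5 and DCC, −0.17 for netrins, 0.65 for the median member. There, 0 members were at least 2-fold lower, against 10.9% of all genes. With no shift taken off, values were 1.51 for plexins, 1.06 for semaphorins, 1.51 for neuropilins, 1.54 for Eph receptors, 0.84 for ephrins, 1.26 for ROBO receptors, 0.91 for SLIT ligands, 1.39 for UNC5 and DCC, 0.26 for netrins, 1.13 for the median member. There, 37 members were at least 2-fold higher and 0 members were at least 2-fold lower, against 26.5% and 2.19% of all genes. Relative to genes of like length, values were 0.87 for plexins, 0.28 for semaphorins, 0.67 for neuropilins, 0.67 for Eph receptors, 0.41 for ephrins, 0.34 for ROBO receptors, −0.0144 for SLIT ligands, 0.47 for UNC5 and DCC, −0.64 for netrins, 0.63 for the median member. There, 0 members were at least 2-fold lower, against 7.17% of all genes. Among genes with a mean of at least 10 CPM, values were 0.71 for the median member. There, 0 members were at least 2-fold lower, against 8.86% of all genes. With no filter on level, 2 members were at least 2-fold lower, against 16.6% of all genes. With at least 1 CPM in each library, values were 0.61 for the median member. There, 0 members were at least 2-fold lower, against 8.87% of all genes. With at most 5% mitochondrial UMIs the direction relative to the median gene turned, among named members, for ROBO4 (−0.31), SLIT2 (−0.53), SLIT1 (−0.10), NTNG2 (−0.38) and NTN4 (0.41). Among the tested members, relative to genes of like length it turned for SLIT1, ROBO1, SEMA3A, NRP1, EFNA5, EPHA3, SEMA4B and EFNB1, and with no shift taken off for NTN4, NTNG1, EFNA3, EPHA8, EFNB1 and SEMA3D, those outside the naming rule being chosen after values were seen. ROBO1, at 0.01, also turned with at most 20% mitochondrial UMIs, among cells with a TPH2 UMI and in clusters 1 to 4. The alternatives without cluster 6, in clusters 1 to 4 and with at least 1 CPM in each library were chosen after seeing the data. With doublets kept, none of these family values or counts moved. Of the values computed for named single genes, 204 lay within their counting intervals and 193 outside, beside ROBO4 above. The count of members above the median gene in all clusters was 18, with 16 in 15 dimensions and 14 without integration, against 17.2%, 13.2% and 10.8% of all genes tested. Cluster membership, and with it the values within clusters, also changed with the number of computing threads, and single-threaded values are given throughout. The cause of these shifts was not tested.

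No paired analysis was possible because there is 1 library per group and the labels give no shared replicate. Group, library, culture and PUR dose cannot be told apart. FOXA2 CPM was higher under the FKO label than under the WT label, but the level of this transcript does not test the genotype.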
